A study of Mus musculus with 2 samples.

Results

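C-type lectin receptors are membrane proteins with which macrophages bind sugars and glycolipids of microbes and products of dying cells. The 9 members of the family described here were chosen by symbol: Clec4a1, Clec4a2, Clec4a3, Clec4d, Clec4e, Clec4n, Clec7a, Clec10a and Clec12a. Of these 9 genes, 8 had a row among the 27998 genes in the count tables, and Clec7a, which encodes the beta-glucan receptor Dectin-1, was not analysed here. The 8 receptors were described in mononuclear phagocytes sorted as MerTk+ CD64+ cells from B16 melanoma tumors, a mouse model in which transplanted melanoma cells grow in the skin. One droplet-based single-cell RNA library came from Fcmr+/+ mice and 1 from Fcmr-/- mice, which lack Fcmr, a receptor for IgM, in all cells, and both were on the C57Bl/6 strain without any treatment named. The number of mice behind each library is not given in the sources used here, so each genotype counted as 1 sample and no test between genotypes was possible.

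Members of this family fall into groups by how they signal. Clec4d (MCL), Clec4e (Mincle) and Clec4n (Dectin-2) pair with the Fc receptor gamma chain, encoded by Fcer1g, and pass their signal through the kinase Syk to Card9, Bcl10 and Malt1 and on to NF-kappaB. Clec4a2 (DCIR) and Clec12a (MICL) carry an inhibitory motif in their cytoplasmic tail that recruits the phosphatases encoded by Ptpn6 and Ptpn11. Clec4a1 and Clec4a3 belong to the same DCIR subfamily as Clec4a2, and Clec10a (MGL1, CD301a) binds galactose-type sugars and takes up what it binds. Clec10a is widely used as a marker of alternatively activated macrophages.

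On the GRCm38 build, 6 of the 8 measured receptors lay in 1 stretch of 368 kb on chromosome 6, chr6:122921848-123289870, which held 9 protein-coding genes. Along it the order was Clec4a1, Clec4a3, Clec4a4, Clec4b1, Clec4a2, Clec4b2, Clec4n, Clec4d and Clec4e, all on the plus strand except Clec4e. Clec12a (ENSMUSG00000053063) lay further along the same chromosome at chr6:129342691-129365303, plus strand, and Clec10a (ENSMUSG00000000318) on chromosome 11 at chr11:70156197-70170834, plus strand. Counting used the 3′ ends of transcripts, where close relatives can share sequence. Among windows of 50 bases in the last 500 bases of their annotated transcripts, 13.8% of those of Clec10a also occurred in Mgl2, and 8.96% of those of Clec4a2 also occurred in Clec4a4 or Clec4b1. For Clec4n the share was 1.10%, with the gene Gm44147. No such window was shared for Clec4a1, Clec4a3, Clec4d, Clec4e or Clec12a. For Clec10a and Clec4a2 it is therefore uncertain how reads from such windows were counted.

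RefSeq start sites of the GRCm38 build gave an upstream window of 250 bases for 6 of the 8 measured receptors, and 5 of them are shown because the results turn on them. By the annotated gene bounds, the windows of Clec12a and Clec4a2 lay inside the gene, and the Clec4a3 window shown ran past the gene start. For these genes the bounds begin upstream of the start site used. Clec4a1 and Clec4a3 are neighbours whose levels varied together across cell states. Clec4a2, further along the locus, varied with both to a like degree, so this was not particular to the pair. Clec4a3 had 2 windows, and the one that shared more letters in runs with Clec4a1 is shown. The windows shown shared 2 runs of at least 12 letters, of 12 and 17 letters, which are in capitals. How often other windows share such runs was not computed, and Clec4a2 was not compared in this way. The runs follow each other directly in Clec4a1 and are parted by a single letter in Clec4a3, and they began 234 bases before the start site of Clec4a1 and 68 bases before that of Clec4a3.
Clec4a1, chr6:122921598-122921847, plus strand: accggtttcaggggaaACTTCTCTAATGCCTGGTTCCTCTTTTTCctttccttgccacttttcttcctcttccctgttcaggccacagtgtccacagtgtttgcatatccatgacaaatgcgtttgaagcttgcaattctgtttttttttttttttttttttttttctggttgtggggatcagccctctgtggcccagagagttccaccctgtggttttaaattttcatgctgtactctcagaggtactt
Clec4a3, chr6:122952394-122952643, plus strand: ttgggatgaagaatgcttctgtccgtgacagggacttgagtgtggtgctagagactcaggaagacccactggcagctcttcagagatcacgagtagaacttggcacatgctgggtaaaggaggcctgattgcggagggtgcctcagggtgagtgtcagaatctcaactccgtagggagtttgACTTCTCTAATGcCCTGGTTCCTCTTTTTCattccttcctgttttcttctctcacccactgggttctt
Clec4d and Clec4e stand next to each other in the locus and had their highest CPM in different clusters, and Clec12a had the largest difference between the libraries among the 8. In their windows the capitals mark GAGGAA on either strand, the core that ETS factors such as PU.1, a macrophage regulator, can bind.
Clec4d, chr6:123261857-123262106, plus strand: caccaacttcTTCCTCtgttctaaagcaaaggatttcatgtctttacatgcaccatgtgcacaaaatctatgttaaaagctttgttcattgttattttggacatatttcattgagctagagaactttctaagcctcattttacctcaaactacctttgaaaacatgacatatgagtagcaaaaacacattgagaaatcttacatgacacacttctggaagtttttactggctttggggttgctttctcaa
Clec4e, chr6:123289872-123290121, minus strand: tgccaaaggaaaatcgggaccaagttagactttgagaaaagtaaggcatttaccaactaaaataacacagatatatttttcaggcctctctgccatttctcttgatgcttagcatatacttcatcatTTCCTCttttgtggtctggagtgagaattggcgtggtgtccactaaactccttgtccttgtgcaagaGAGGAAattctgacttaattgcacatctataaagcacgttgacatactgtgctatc
Clec12a, chr6:129349994-129350243, plus strand: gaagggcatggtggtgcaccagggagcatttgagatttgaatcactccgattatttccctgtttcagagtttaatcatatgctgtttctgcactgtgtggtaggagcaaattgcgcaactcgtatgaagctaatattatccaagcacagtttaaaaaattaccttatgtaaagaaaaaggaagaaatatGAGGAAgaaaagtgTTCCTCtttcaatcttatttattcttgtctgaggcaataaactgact
These letters occurred in a window of 5 of the 6 receptors with one, all but Clec4a2, and in 23.3% of all 32851 upstream windows of mouse genes. A receptor was counted if any of its windows had a match, whereas the share is of single windows. The other Clec4a3 window, not shown, had no match. In Clec4a1 and Clec4a3 a match lay inside the longer of the shared runs. The AP-1 letters TGANTCA occurred in Clec12a among the 6, against 6.75% of all windows. The hypoxia response letters ACGTG occurred in Clec4e, against 16.6% of all windows, and TTNNGCAA, letters that C/EBP factors can bind, in Clec4e and Clec12a, against 9.56%. A match is a feature of the sequence and was not tested as a binding site.

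After the limits on genes and mitochondrial transcripts, 6352 Fcmr+/+ and 7999 Fcmr-/- cells remained, with 128408544 and 124630621 unique molecular identifiers (UMIs, each standing for 1 captured transcript). The median depth was 17974 UMIs per Fcmr+/+ cell and 12911 per Fcmr-/- cell. Levels are given as CPM, the UMIs of a gene summed over the cells per 1000000 UMIs of those cells, and shares of cells were also computed after each cell was thinned to 5000 UMIs. Intervals are exact 95% intervals that cover counting error only, not the spread between mice or tumors. Those of levels and ratios take each UMI as independent and also leave out the spread between cells. Fcmr itself had 7 UMIs in the Fcmr+/+ library and 6 in the Fcmr-/- library, too few to check the genotypes. Mertk had 62.8 and 48.7 CPM, and Fcgr1, which encodes CD64, 250.4 and 394 CPM, in Fcmr+/+ and Fcmr-/- cells in that order. Summed markers of monocytes went from 392 CPM in Fcmr+/+ to 585 CPM in Fcmr-/- cells and of neutrophils from 31.8 to 48.7 CPM. Those of conventional dendritic cells went from 8.82 to 13.9 CPM and of T and NK cells from 0.864 to 14.5 CPM. Melanoma markers went from 40.2 to 63.6 CPM. Within the monocyte list Ly6c2 went from 31.1 to 107.6 CPM and Plac8 from 137.6 to 232.9 CPM. Ccr2 had 131.2 and 134.9 CPM, and Hp was lower, at 21.8 and 12.9 CPM. Within the neutrophil list Csf3r went from 15.7 to 24.1 CPM and S100a8 from 14.0 to 19.6 CPM. Cxcr2 was lower, at 47 and 29 UMIs, and Ly6g and Camp had 0 UMIs in Fcmr+/+ and 3 and 2 in Fcmr-/- cells. The part of cells of these types in the receptor levels was not tested. Both libraries held 73 cell barcodes in common. The level of the receptors in free RNA was not measured.

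All 8 measured receptors passed 5 CPM in both libraries. Of these, 6 lay higher in the Fcmr-/- library and 2 lower. Among the 8701 genes with at least 5 CPM in either library, 50.5% lay higher in the Fcmr-/- library. The median log2 ratio of Fcmr-/- to Fcmr+/+ was 0.21 for the receptors, beside 0.00 over those genes. Clec12a was the one receptor at least 1.5-fold higher in Fcmr-/- cells, and 2.64% of the 8701 genes were that much higher. None of the 8 was at least 1.5-fold lower, and 2.17% of the genes were. With 1 library a genotype, none of these differences can be set against the spread between mice.

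**Figure D1:**
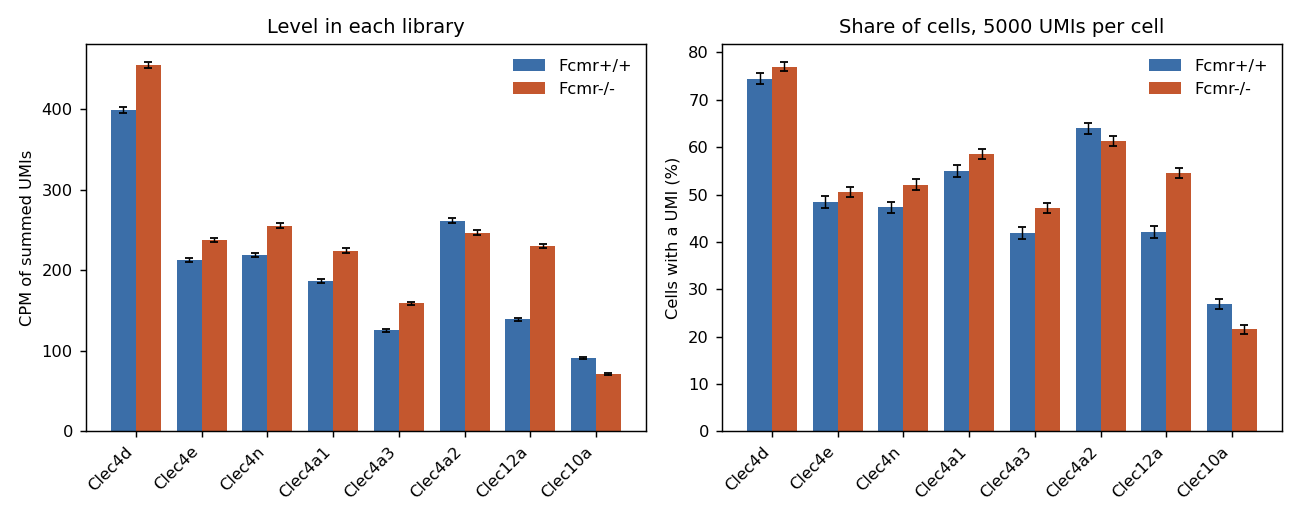
Levels of the 8 receptors in CPM (left) and the percentage of cells with at least 1 UMI after thinning to 5000 UMIs per cell (right) in the Fcmr+/+ (blue) and Fcmr-/- (orange) library. Bars are single libraries and error bars are exact 95% counting intervals. Clec12a shows the widest gap, at 139 against 229.8 CPM, and Clec4a2 and Clec10a are the ones lower in Fcmr-/- cells.

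Cells of both libraries were grouped into 10 clusters on genes that did not include the receptors, so that no receptor shaped the states over which it is described. Cluster 1 was led by Iigp1, Serpina3g and Cxcl9, genes induced by interferon gamma, and held 98 Fcmr+/+ and 2373 Fcmr-/- cells. Cluster 2 was led by Ccl17, Il1r2 and Ifitm1 and had the highest summed level of MHC class II genes in both libraries. Cluster 3 was led by the inflammatory genes Cxcl3, Ppbp and Ccl24, cluster 4 by Acp5, Apoe and Itgax, and cluster 5 by the mitotic genes Nusap1, Cenpf and Plk1. Cluster 6 was led by hemoglobin transcripts and by Adm and Rhov and had the highest summed level of hypoxia genes, and cluster 7 was led by Tfrc, Cnrip1 and Ednrb and had the highest level of scavenger receptors. Cluster 8 was led by Ifit3b, Rsad2 and Cmpk2, genes induced by type I interferon, cluster 9 by Mfge8, Plpp3 and Npy, and cluster 10 by Adm, Cdk18 and Pdgfa. Clusters 1, 8 and 9 drew 96.0%, 74.7% and 83.4% of their cells from the Fcmr-/- library, and with 1 library a genotype such a cluster and its library cannot be told apart.

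Among the receptors that couple to the Fc receptor gamma chain, Clec4d (ENSMUSG00000030144, chr6:123262111-123275265) had 399 CPM (interval 396 to 402) in Fcmr+/+ and 454 CPM (450.4 to 458) in Fcmr-/- cells, a log2 ratio of 0.19. It was found in 92.6% of Fcmr+/+ and 91.8% of Fcmr-/- cells, and in 74.5% and 77.0% after thinning. Across states it was highest in the hypoxic cluster 6 in both libraries, at 603 and 895 CPM. The lowest level was 264 CPM in cluster 1 for Fcmr+/+ and 289 CPM in the dividing cluster 5 for Fcmr-/- cells. In Fcmr-/- cells every step in the order of the 10 clusters, from cluster 6 through 9, 8, 3, 10, 4, 7, 2 and 1 down to cluster 5, was a ratio whose exact counting interval left out 1. Clec4d was thus a transcript found in most cells whose amount varied about 3.09-fold over the Fcmr-/- states and 2.29-fold over the Fcmr+/+ states.

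Clec4e (ENSMUSG00000030142, chr6:123281789-123289870), the Mincle receptor that responds to dead cells and mycobacterial glycolipid, had 212 CPM (interval 209.9 to 215) in Fcmr+/+ and 238 CPM (235 to 240.3) in Fcmr-/- cells, a log2 ratio of 0.16. It was the receptor with the widest range over states. The inflammatory cluster 3 had the highest level in both libraries, at 372 and 525 CPM, and cluster 4 the lowest, at 87.8 and 69.0 CPM, a range of 4.24-fold and 7.60-fold. No other receptor reached a 4-fold range in both libraries. Clusters 6 and 8 followed cluster 3 in Fcmr-/- cells with 475 and 481 CPM, which did not differ beyond counting error. In Fcmr+/+ cells cluster 2 came second with 326 CPM and did not differ beyond counting error from cluster 8, at 316 CPM.

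Clec4n (ENSMUSG00000023349, chr6:123229843-123247021), the Dectin-2 receptor for fungal mannans, had 218 CPM (interval 216 to 221) in Fcmr+/+ and 255 CPM (252 to 258) in Fcmr-/- cells, a log2 ratio of 0.22. It too was highest in cluster 3, at 299 and 443 CPM. In Fcmr+/+ cells cluster 2 was next at 296 CPM and did not differ from cluster 3 beyond counting error. The lowest levels were 151 CPM in cluster 5 for Fcmr+/+ and 135 CPM in cluster 7 for Fcmr-/- cells. In Fcmr-/- cells cluster 7 did not differ beyond counting error from cluster 5, at 139 CPM.

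Among the DCIR genes, Clec4a1 (ENSMUSG00000049037, chr6:122921848-122934619) had 186 CPM (interval 184 to 189) in Fcmr+/+ and 224 CPM (222 to 227) in Fcmr-/- cells, a log2 ratio of 0.27. Clec4a3 (ENSMUSG00000043832, chr6:122952515-122969875) had 125 CPM (124 to 127) and 159 CPM (156 to 161), a log2 ratio of 0.34. The inhibitory Clec4a2 (ENSMUSG00000030148, chr6:123106428-123143999) had 261 CPM (259 to 264) and 247 CPM (244 to 249), a log2 ratio of -0.08. All 3 had their highest levels among clusters 1, 2 and 4 and their lowest in cluster 6 or 10, whereas Clec4d was highest in cluster 6. Clec4a3, for example, had 199 CPM in cluster 1 and 52.0 CPM in cluster 6 of the Fcmr+/+ library, and 209 CPM in cluster 2 and 57.9 CPM in cluster 6 of the Fcmr-/- library. In Fcmr+/+ cells the levels of Clec4a1 in clusters 4, 2 and 1, between 232 and 236 CPM, did not differ beyond counting error. Cluster 9 was low too in Fcmr-/- cells, at 115 CPM for Clec4a1, 77.1 CPM for Clec4a3 and 131 CPM for Clec4a2.

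Clec12a, the inhibitory receptor for uric acid crystals, had 139 CPM (interval 137 to 141) in Fcmr+/+ and 229.8 CPM (227 to 232) in Fcmr-/- cells, a 1.65-fold difference, or 0.73 on the log2 scale with bounds of 0.70 and 0.75. It was found in 72.5% of Fcmr+/+ and 74.8% of Fcmr-/- cells at full depth, and in 42.1% and 54.6% after thinning. Cluster 1 had the highest level in both libraries, at 242 and 333 CPM, followed by the dividing cluster 5 at 168 and 268 CPM. In Fcmr+/+ cells cluster 5 did not differ beyond counting error from cluster 7, at 163 CPM. The lowest were cluster 6 at 76.8 CPM in Fcmr+/+ and cluster 9 at 85.5 CPM in Fcmr-/- cells. Without cluster 1, which held 1.54% of Fcmr+/+ and 29.7% of Fcmr-/- cells, the log2 ratio was 0.35 and no receptor reached 1.5-fold.

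Clec10a had 90.7 CPM (interval 89.1 to 92.4) in Fcmr+/+ and 70.7 CPM (69.2 to 72.2) in Fcmr-/- cells, a log2 ratio of -0.36, with bounds of -0.40 and -0.32. It was found in 55.3% and 43.1% of cells, and in 26.9% and 21.5% after thinning. Cluster 7, with the highest scavenger receptor level, had the highest Clec10a level in Fcmr+/+ cells at 113 CPM, and cluster 2 in Fcmr-/- cells at 123 CPM. In Fcmr+/+ cells clusters 7 and 2, at 113 and 108 CPM, did not differ beyond counting error. Cluster 6 was lowest in both, at 44.5 and 26.0 CPM. In Fcmr+/+ cells cluster 6 did not differ beyond counting error from cluster 8, at 47.0 CPM. Cluster 7 held 17.4% of Fcmr+/+ and 3.93% of Fcmr-/- cells. Summed markers of conventional dendritic cells were highest in cluster 2 in both libraries, at 37.4 CPM in Fcmr+/+ and 87.5 CPM in Fcmr-/- cells. The part of such cells in the Clec10a level was not tested. The related lectin Mgl2, with which some of its 3′ windows are shared, had 46.0 and 33.8 CPM. Mgl2 was among the leading genes of cluster 2, at 134 CPM against 24.3 CPM in all other cells of both libraries. The part of shared windows in the Clec10a level of cluster 2 was not tested.

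**Figure D2:**
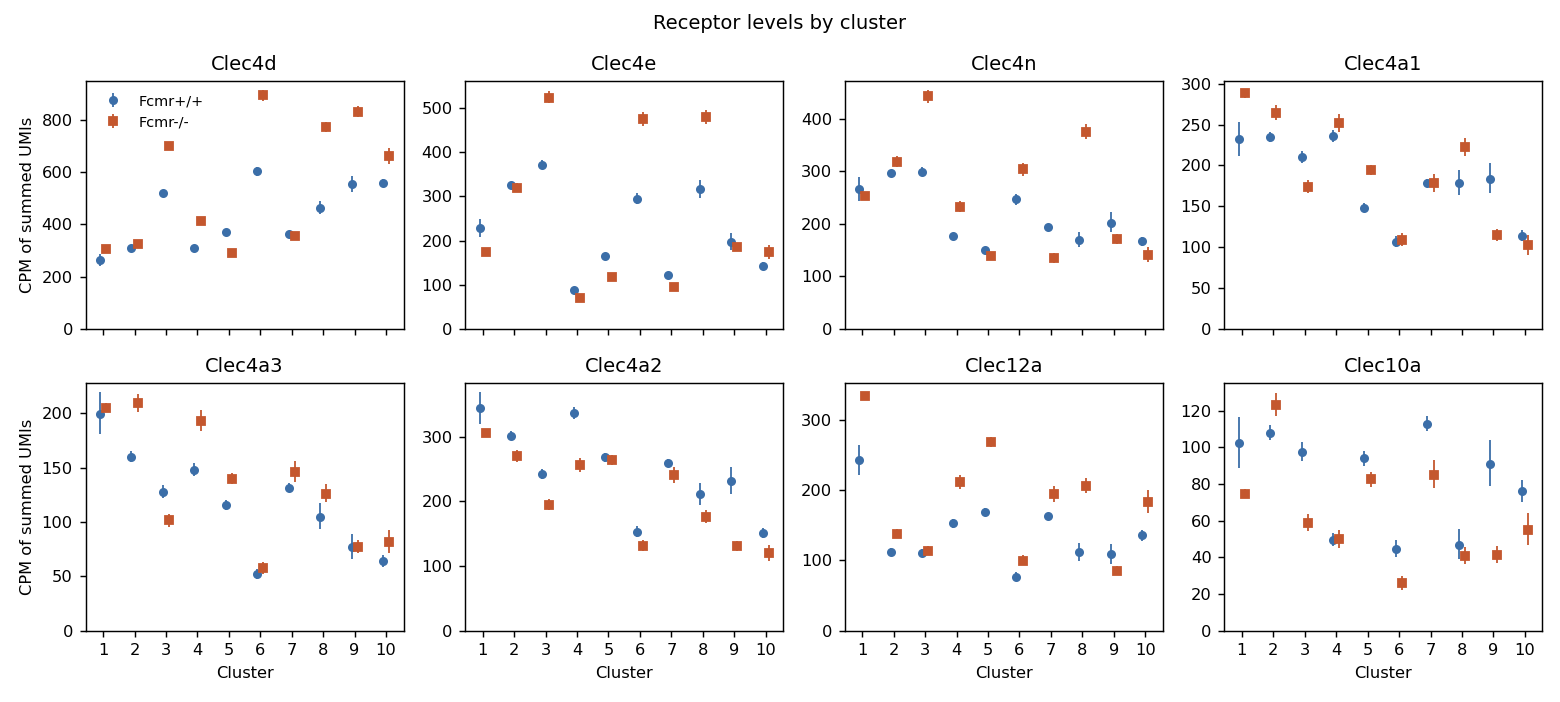
Level of each receptor in CPM (vertical axes, all from 0) in each of the 10 clusters (horizontal axes) for Fcmr+/+ (blue circles) and Fcmr-/- (orange squares) cells. Points are sums over the cells of 1 library and bars are exact 95% counting intervals. Clec4d peaks in cluster 6, Clec4e and Clec4n in cluster 3 and Clec12a in cluster 1, and Clec4a1, Clec4a2 and Clec4a3 are low in clusters 6 and 10.

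Cells were also ranked within each library, after thinning, by their summed UMIs from a fixed gene list, and receptor levels were compared between the top and the bottom quartile. This needs no clusters, and ties were broken by the order of cells in the file. Over the inflammatory list (Il1b, Cxcl2, Cxcl1, Ptgs2 and Nlrp3), Clec4e was higher in the top quartile by 2.46 on the log2 scale in Fcmr+/+ and 2.99 in Fcmr-/- cells. Clec4n followed with 1.02 and 1.52, and Clec4d with 0.66 and 0.99, whereas the other 5 receptors lay between -0.47 and 0.06. Over the hypoxia list, Clec4d (0.82 and 1.5) and Clec4e (0.85 and 1.77) were higher in the top quartile, and Clec4a3 (-1.26 and -1.36), Clec4a1 (-0.68 and -0.93), Clec4a2 (-0.71 and -0.88), Clec12a (-0.78 and -0.92) and Clec10a (-0.73 and -1.08) were lower. The list of Arg1, Spp1 and Mmp12 split the receptors the same way, with Clec4d at 0.83 and 1.74 and Clec4a3 at -1.06 and -1.55. Over MHC class II genes, Clec4e (1.15 and 0.38) and Clec4n (1.07 and 0.90) were higher in the top quartile in both libraries. On that list Clec4a3 was also higher in the top quartile by 0.84 and 1.10 and Clec4d lower, at -0.70 and -1.06, while Clec12a was at -0.13 in Fcmr+/+ and 1.04 in Fcmr-/- cells. Over the scavenger receptor list Clec10a had the largest value of the 8, at 1.14 and 0.95.

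**Figure D3:**
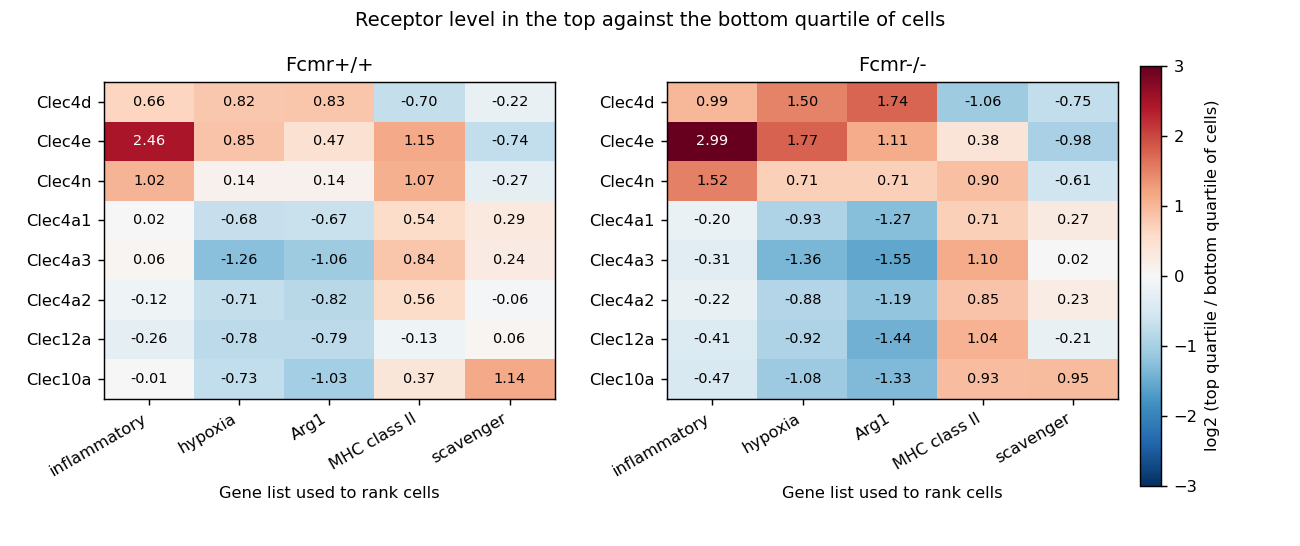
Log2 ratio of each receptor's level in the top to that in the bottom quartile of cells ranked by the summed UMIs of a gene list, in Fcmr+/+ (left) and Fcmr-/- (right) cells thinned to 5000 UMIs. Red is higher and blue lower in the top quartile. Clec4e has the largest values on the inflammatory list, at 2.46 and 2.99, and Clec4d and the DCIR genes have opposite signs on the hypoxia, Arg1 and MHC class II lists in both libraries.

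Because the libraries differed in the share of cells in each cluster, levels were then compared within clusters. Clec4a2 was lower in Fcmr-/- cells in 10 of 10 clusters, with the counting interval below 0 in 9, and its log2 ratios ran from -0.82 in cluster 9 to -0.03 in cluster 5. It was the one receptor with the same direction in every cluster, although its ratio over all cells was close to 0. The share of all genes with a single direction in every cluster was not computed, so these counts have no background beside them. Clec12a was higher in 9 clusters, with the interval above 0 in 8, from 0.05 in cluster 3 to 0.89 in cluster 8, and lower in cluster 9 at -0.34. Clec4a3 was higher in 9 clusters and Clec4d in 8, with Clec4d lower by -0.36 in the dividing cluster 5. Summed T and NK cell markers in cluster 5 stood at 0.0463 CPM in Fcmr+/+ and 60.9 CPM in Fcmr-/- cells. The part of such cells in the receptor ratios of cluster 5 was not tested. Clec10a was lower in 8 clusters, down to -1.14 in cluster 9, and higher by 0.19 in cluster 2. Cluster 9 held 118 Fcmr+/+ and 593 Fcmr-/- cells. In it the Arg1 list went from 10758 CPM in Fcmr+/+ to 21541 CPM in Fcmr-/- cells. Summed macrophage markers there went from 12268 to 9240 CPM. State was thus not held fixed in cluster 9, and its part in the ratios of that cluster was not tested.

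The remaining 3 receptors had no common direction over the states. Clec4n was higher in 5 clusters and lower in 5, with ratios from -0.53 in cluster 7 to 1.15 in the type I interferon cluster 8, where it had 169.7 CPM in Fcmr+/+ and 376 CPM in Fcmr-/- cells. Clec4e was higher in Fcmr-/- cells in clusters 3, 6, 8 and 10 and lower in 6 clusters, with ratios from -0.49 in cluster 5 to 0.69 in cluster 6. Clec4a1 was higher in 6 and lower in 4. In clusters 3, 6 and 8 all 3 receptors of the Fc receptor gamma chain group lay higher in Fcmr-/- cells, with Clec4d at 0.43, 0.57 and 0.74. The same clusters also had higher summed neutrophil markers in Fcmr-/- than in Fcmr+/+ cells, at 96.3 against 38.6 CPM in cluster 3, 65.9 against 35.8 CPM in cluster 6 and 76.1 against 41.8 CPM in cluster 8. Summed monocyte markers were higher there too, at 560.2 against 408 CPM, 524 against 305 CPM and 1684 against 1202 CPM, and melanoma markers in cluster 6 stood at 204 against 75.4 CPM. Over the 20 cluster sums, Clec4e and Clec4n had an r of 0.69 and 0.71 with the monocyte and 0.49 and 0.63 with the neutrophil list. The part of such cells in these levels was not tested. State lists also differed between the libraries inside clusters 3, 6 and 8, so a cluster did not hold state fixed. In that order, the inflammatory list went from 11160 to 14962, 7271 to 9789 and 6162 to 10407 CPM from Fcmr+/+ to Fcmr-/- cells. The Arg1 list went from 6617 to 18360, 10867 to 15093 and 7222 to 9517 CPM. The type I interferon list fell in cluster 8, from 8829 to 6575 CPM. The part of state in these ratios was not tested.

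**Figure D4:**
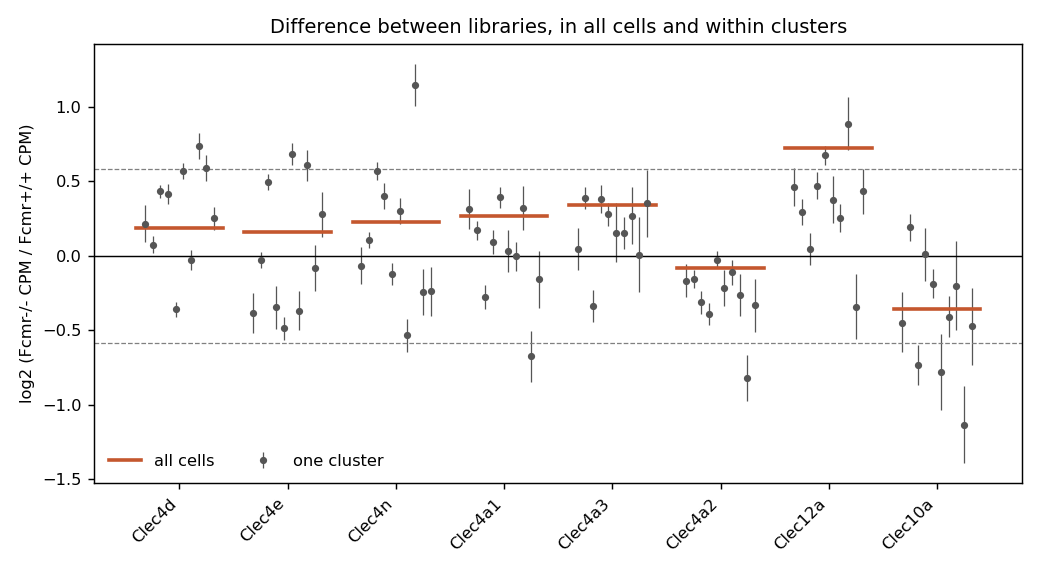
Log2 ratio of Fcmr-/- to Fcmr+/+ CPM for each receptor in all cells (orange line) and within each of the 10 clusters (grey points, clusters 1 to 10 from left to right, with exact 95% counting intervals). Dashed lines mark 1.5-fold. All points of Clec4a2 lie below 0, 9 of 10 points of Clec12a lie above it, and those of Clec4n run from -0.53 to 1.15.

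Cluster 1 and the interferon gamma response were unevenly spread over the libraries. Cluster 1 drew 96.0% of its cells from the Fcmr-/- library. The 6 genes Cxcl9, Gbp2, Gbp4, Gbp5, Iigp1 and Irgm1 summed to 65.4 CPM in Fcmr+/+ and 482 CPM in Fcmr-/- cells. Within cluster 1 they summed to 722 CPM in Fcmr+/+ and 894 CPM in Fcmr-/- cells. As an addition made once the values were known, Clec12a was set side by side in cells with like numbers of UMIs from these genes after thinning. In cells with 0 such UMIs it had 129.8 CPM in 5285 Fcmr+/+ and 156 CPM in 4206 Fcmr-/- cells, which is 0.26 on the log2 scale (0.19 to 0.33). With 1 to 2 UMIs the levels were 143 and 227 CPM and the ratio 0.67. With 3 or more UMIs, in 165 Fcmr+/+ and 1767 Fcmr-/- cells, they were 209.7 and 346 CPM and the ratio 0.72 (0.50 to 0.95). Clec12a thus stood higher in the Fcmr-/- library in each of the 3 classes. Ranked by the same UMIs, the top against the bottom quartile of cells gave a log2 ratio of 0.08 (-0.04 to 0.20) in Fcmr+/+ and 1.11 (1.03 to 1.2) in Fcmr-/- cells. Most Fcmr+/+ cells were tied at 0 such UMIs, and the high Fcmr+/+ level in the class of 3 or more rests on its 165 cells. The classes do not hold equal amounts of the response, since the class of 3 or more has no upper limit. Nor were the cells of a class matched on cluster.

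Over the 20 sums of 1 cluster in 1 library, the log2 levels of Clec4a1, Clec4a2 and Clec4a3 correlated with Pearson's r of 0.83 to 0.90, and the same held within the 10 sums of each library (0.88 to 0.93 in Fcmr+/+, 0.91 to 0.94 in Fcmr-/-). Clec4e and Clec4n had an r of 0.73, with 0.65 and 0.77 in the libraries taken singly. Clec4d was opposed to Clec4a2 with an r of -0.89 and to Clec4a3 with -0.77, and its r was 0.48 with Clec4e and 0.23 with Clec4n. In the libraries taken singly, its r with Clec4e was 0.28 in Fcmr+/+ and 0.59 in Fcmr-/-, and with Clec4n -0.11 and 0.32, with opposite signs. These sums share their libraries and depth, and the values describe them without a test. By the same measure over the state lists, Clec4e went with the inflammatory genes (0.92), as did Clec4n (0.80), Clec4d with Arg1, Spp1 and Mmp12 (0.88), Clec10a with the scavenger receptors (0.72) and Clec12a with the interferon gamma genes (0.66). The last value was 0.44 in Fcmr+/+ and 0.76 in Fcmr-/- sums, and the pooled one also holds the difference between the libraries in both measures. The genes most like each receptor, of 5247 with at least 20 CPM, were Jag1, Cd9 and Ugdh for Clec4d (r from 0.91 to 0.94), Rab11fip1, Dusp5 and Pde4b for Clec4e (0.95 to 0.96) and Mapkapk3, Il1b and Ccr1 for Clec4n (0.85 to 0.88). For the DCIR genes they were Ucp2, Myl12b and Tmem51 for Clec4a1, Pmvk, Sla and Sys1 for Clec4a2, and Unc93b1, Lyn and Itga4 for Clec4a3, with r from 0.91 to 0.96. For Clec12a they were Pla2g16, Lap3 and Ccl8 (0.89 to 0.92) and for Clec10a Glud1, Arhgdib and Txn2 (0.86 to 0.89).

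From cell to cell, correlations between the receptors were low, and sparse counts by themselves bring them near 0. Over the 28 pairs, in cells thinned to 5000 UMIs, Pearson's r had a median of 0.03 in Fcmr+/+ and 0.02 in Fcmr-/- cells, and the highest values were 0.18 and 0.26. No pair reached 0.2 in both libraries, 0 did in Fcmr+/+ and 5 did in Fcmr-/- cells. The 5 were Clec4a1 with Clec4a3 (0.26) and Clec4a2 (0.23), Clec4a2 with Clec4a3 (0.22), and Clec4e with Clec4n (0.23) and Clec4d (0.23), and the same 5 pairs had r from 0.10 to 0.18 in Fcmr+/+ cells. With each cluster centred on its own mean, those r were 0.15 to 0.19 in Fcmr-/- and 0.09 to 0.13 in Fcmr+/+ cells. Clec4e and Clec4n were both found in 25.2% of thinned Fcmr+/+ cells, where the product of their shares gives 22.9%, and in 29.97% of Fcmr-/- cells, where it gives 26.3%. A thinned cell held UMIs of a median of 4 of the 8 receptors in both libraries, all 8 in 0.346% of Fcmr+/+ and 0.850% of Fcmr-/- cells, and none in 0.362% and 0.288%.

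**Figure D5:**
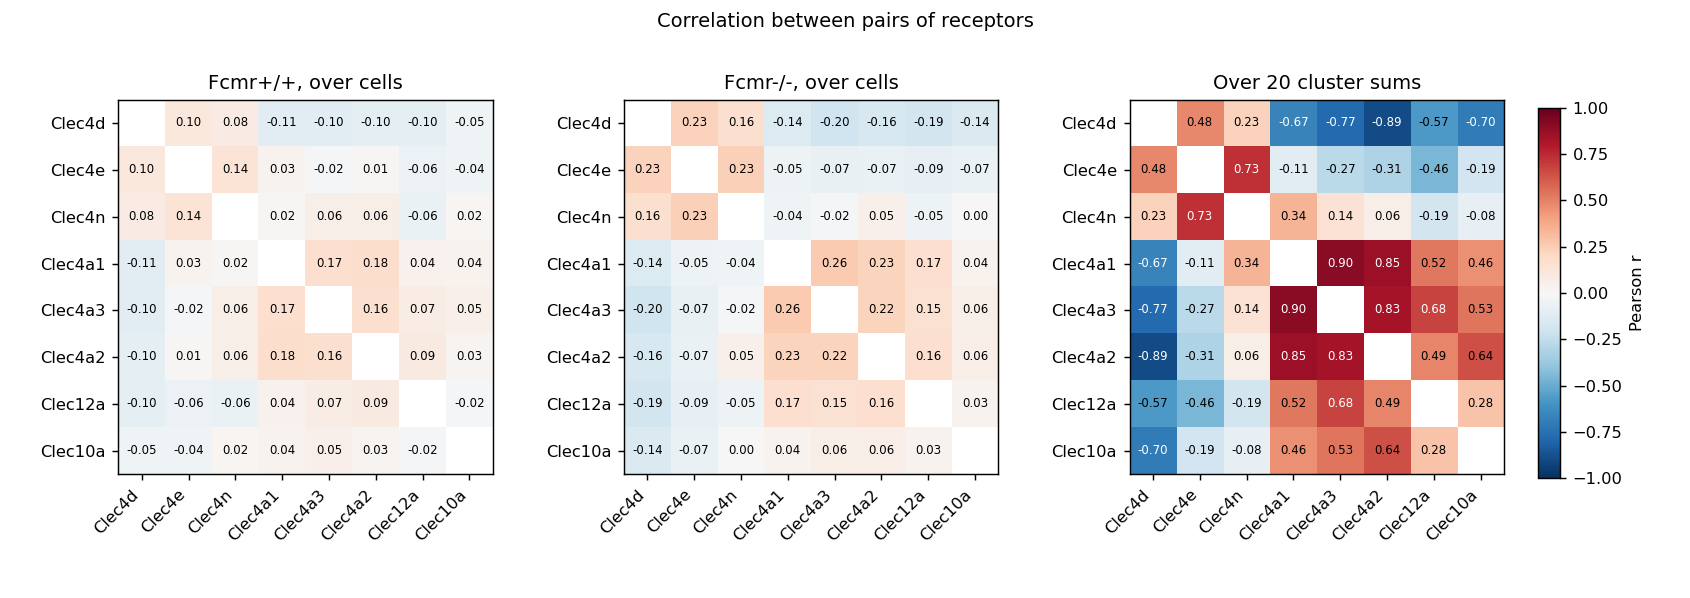
Pearson's r between pairs of receptors over Fcmr+/+ cells (left), over Fcmr-/- cells (middle), both thinned to 5000 UMIs per cell, and over the 20 sums of 1 cluster in 1 library (right), on 1 colour scale from -1 to 1. Values over cells stay between -0.20 and 0.26, whereas those over cluster sums run from -0.89 to 0.90, with the DCIR genes in a block opposed to Clec4d.

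Most signaling genes downstream of the receptors lay within 1.5-fold between the libraries. Over the 8701 genes with at least 5 CPM in either library, 2.64% were at least 1.5-fold higher and 2.17% that much lower in Fcmr-/- cells. Their median log2 ratio was 0.00. Of 19 genes of the activating chain, 17 had at least 5 CPM, and 0 of these were at least 1.5-fold lower in Fcmr-/- cells, with a median log2 ratio of 0.11. Fcer1g had 2667 and 2831 CPM, Tyrobp, a related adaptor, 1617 and 1721 CPM and Syk 117 and 112 CPM in Fcmr+/+ and Fcmr-/- cells. Card9 was under the limit in both, at 4.88 and 4.42 CPM. Of 4 genes of the inhibitory chain, 1 was higher and 0 lower, namely Ptpn6, which encodes the phosphatase SHP-1, at 118 and 185 CPM, a log2 ratio of 0.64.

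Inflammatory genes that these receptors can induce went both ways. Of 8 listed, 6 had at least 5 CPM, of which 1 was at least 1.5-fold higher and 2 were lower, with a median log2 ratio of -0.30. Over all genes the shares were 2.64% higher and 2.17% lower, with a median of 0.00, as given above. Ptgs2, which encodes cyclooxygenase-2, had 226 CPM in Fcmr+/+ and 423 CPM in Fcmr-/- cells, whereas Tnf had 259 and 134 CPM and Il10 116 and 49.6 CPM. Of 40 other genes of the C-type lectin family, 14 had at least 5 CPM, of which 2 were higher and 1 lower, with a median log2 ratio of -0.08. The ones past the limit were Cd72, an inhibitory receptor known from B cells, at 29.0 and 50.6 CPM, Klrk1, which encodes the receptor NKG2D of NK and T cells, at 2.51 and 9.08 CPM, and Colec12, a scavenger receptor, at 8.07 and 4.31 CPM. T and NK cell markers moved with the libraries as given above, and their part in Klrk1 was not tested. Among the 6 with the highest levels, Mrc1, the mannose receptor, had 907 and 627 CPM, Cd93 408 and 384 CPM, Clec2d 109.7 and 159 CPM and Cd302 95.7 and 84.7 CPM, none past 1.5-fold, beside Mgl2 and Cd72 named above. Clec4a4 and Clec4b2, which lie among the receptors of the chromosome 6 locus, had 0.0623 and 0.0156 CPM in Fcmr+/+ and 0.0642 and 0.0241 CPM in Fcmr-/- cells, while Clec4b1 had 29.3 and 25.5 CPM.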

How the data were processed

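RNA was measured in 2 droplet-based 3′ single-cell libraries, 1 per genotype. The values the authors deposited are UMI counts, not normalized, for each gene in each cell barcode. Reads had been mapped to GRCm38 and counted by Cell Ranger. The tables held 6392 Fcmr+/+ and 8017 Fcmr-/- barcodes, and the study used Seurat 2.1.0 downstream. Here cells with 200 to 7000 genes and at most 30% mitochondrial UMIs were kept, as in the study methods. Depth was 128408544 and 124630621 UMIs over the cells kept, which sets the counting intervals (Poisson, Clopper-Pearson, and conditional binomial for ratios, all exact at 95%). Genotypes were not tested against each other, since each has a single library, and a difference was called only by size, at 1.5-fold.

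Clusters came from Seurat 5.3.0 in R 4.3.3, with 1330 variable genes after 6 of the receptors were left out, 10 principal components, 30 neighbours and a resolution of 0.8. Clusters were compared by number and not named as cell types. The remaining steps ran under Python 3.11.15 (scipy 1.17.1, numpy 2.4.6). Thinning to 5000 UMIs left out 0 cells. Scrublet (scanpy 1.11.5, 6% expected) called 0 doublets in each library, too few to rely on, so the highest scores (237 and 338 cells) were removed as an alternative. Clec7a had no row, so that 28 pairs were compared. The calculations were tested on simulated counts.

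The receptors, gene lists and the rule for named genes were chosen with earlier results of these data known. Named are the receptors, Fcer1g, Tyrobp, Syk, Card9 and Ptpn6, listed pathway genes past 1.5-fold, the 6 other C-type lectins of highest CPM, the 3 genes most like each receptor, marker genes and leading genes of clusters. Clec4a4, Clec4b1 and Clec4b2 were named for their position, after their values were seen, and so was Clec7a as a receptor without values. One gene of the pathway lists that the rule names is not reported here. Alternatives covered the limits on cells, doublets, scaling, pseudocount, thinning, the weight of clusters, the limits on CPM and fold, and the clustering.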

Additional observations from a re-analysis of the deposited data

How the results depend on the processing

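Every receptor kept its direction between the libraries under all 11 alternatives run on the ratios. Their sizes moved when cells were thinned to 5000 UMIs, which gives each cell equal weight. The log2 ratio of Clec4d was then 0.38, against 0.19 at full depth, and 0.39 as a mean over cells. Thinned ratios were 0.26 for Clec4e, 0.34 for Clec4n, 0.23 for Clec4a1 and 0.27 for Clec4a3. For Clec4a2, Clec10a and Clec12a they were -0.15, -0.46 and 0.69. The count of receptors at least 1.5-fold higher went from 1 to 0 with equal weight to each cluster, to 0 at a fold threshold of 2 and, chosen after the data were seen, to 0 without cluster 1. Clec12a had a log2 ratio of 0.41 with equal weight and 0.35 without cluster 1, as the lowest of a range up to 0.74. Without cluster 1 the ratios of Clec4a1 and Clec4a3 were 0.04 and 0.11, of Clec4a2 -0.28, of Clec4d 0.41 and of Clec4e 0.36. The count of receptors with 1 direction in every cluster was 0 at a resolution of 0.4 and 0 with 20 principal components. The count with a 4-fold range in both libraries was 0 at a resolution of 0.4 and 3 with 20 principal components, namely Clec4d, Clec4e and Clec10a. Without thinning, 3 pairs reached an r of 0.2 in both libraries, those among Clec4a1, Clec4a2 and Clec4a3. The share of all genes past 1.5-fold was 2.84% higher and 1.60% lower with at least 50 CPM, and 7.72% and 10.3% without a filter. No paired analysis was possible because each genotype has 1 library, and no replicate could be left out for the same reason. Depth sets the counting intervals, but the spread between mice remains unknown.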

Other observations

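The receptors of the Fc receptor gamma chain group were also set side by side in cells matched on the UMIs of the interferon gamma list, also added once the values were known. Levels in these classes were taken after thinning to 5000 UMIs. In cells with 0 such UMIs the log2 ratio of Fcmr-/- to Fcmr+/+ was 0.53 for Clec4d, 0.37 for Clec4e and 0.39 for Clec4n. Over all cells, thinned in the same way, it was 0.38, 0.26 and 0.34 in that order. In cells with 3 or more it was 0.44 for Clec4d, -0.27 (interval -0.46 to -0.07) for Clec4e and 0.17 (interval -0.05 to 0.40) for Clec4n. Clec4e thus had opposite signs in these classes, with 249.5 against 323 CPM at 0 UMIs and 304 against 253 CPM at 3 or more. The latter class rests on 165 Fcmr+/+ cells, and these intervals leave out the spread between cells. The difference between the classes was not tested, since each genotype has 1 library. Cells were matched on this list alone and not on cluster, and the mix of clusters in each class was not compared. Over all cells without cluster 1 the ratio was 0.41 for Clec4d, 0.36 for Clec4e and 0.23 for Clec4n. Those 3 values are at full depth, unlike the ones of the thinned classes. Clec10a had a ratio of -0.58 at 0 UMIs and -0.08 (interval -0.45 to 0.31) at 3 or more. In single cells at full depth, the most UMIs of 1 receptor were 84 of Clec4e and 81 of Clec4n in Fcmr+/+ cells, and 79 of Clec4n and 68 of Clec4e in Fcmr-/- cells.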
